A study of Triticum aestivum with 10 samples.

Results

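The genes described here are 2 inhibitor genes of the wheat grain, LOC542981 and LOC542996, measured in developing seeds of the winter wheat cultivar Redland. LOC542981, with the synonym WMAI-1, encodes an alpha-amylase inhibitor, and LOC542996, with the synonym wci, encodes a chymotrypsin inhibitor. All probe sets annotated to these genes were taken, which gave 1 probe set per gene, or 2 of the 61179 tested probe sets and 2 of the 771 genes with a symbol. The RefSeq gene table of the Chinese Spring assembly IWGSC CS RefSeq v2.1 places WMAI-1 on chromosome 6D and wci on chromosome 7D. The genes were chosen with their values on all 10 arrays in view, so their levels and differences are given as a description and carry no test.

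Time is given in hours after fertilization (HAF). Whole seeds came from regularly watered plants (control) at 24, 48 and 72 HAF, and from plants whose watering had been stopped (drought) at 48 and 72 HAF. The labels call the tissue developing seed, and their description names both endosperm and whole seed, so the samples are taken here as whole seeds. Each of these 5 groups held 2 Affymetrix wheat arrays, each from a sample labelled as a separate biological replicate, with no plant or pot named. All plants were vernalized and grown in soil and sand in a growth chamber, and each floret was marked when its anthers showed outside the closed spike. The labels give 24 HAF in one place and 48 HAF in another as the start of drought, so seeds of the drought 48 HAF group had been without water for 24 hours or had only entered the treatment.

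Alpha-amylase inhibitors of cereals are small, disulfide-rich seed proteins that accumulate in the endosperm, the storage tissue that later feeds the seedling. They bind amylases, above all those of insects that feed on grain, and belong with the gliadins and glutenins to the prolamin superfamily. Chymotrypsin inhibitors block serine proteases of the chymotrypsin kind, and such inhibitors are counted among the defence proteins of the seed. Transcripts of storage and defence proteins of the endosperm are known to accumulate as the endosperm passes from the syncytial and cellularizing stages to filling.

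Across the time course, both inhibitor genes were low in seeds of 48 HAF and high on 3 of the 4 arrays of 72 HAF. At 72 HAF the low array was control replicate 1, and the high ones were control replicate 2 and both drought arrays. At 24 HAF wci was high on replicate 2 alone, an array that stood apart from the others. All levels are deposited log2 values, on which a difference of 1 is a doubling.

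**Figure D1:**
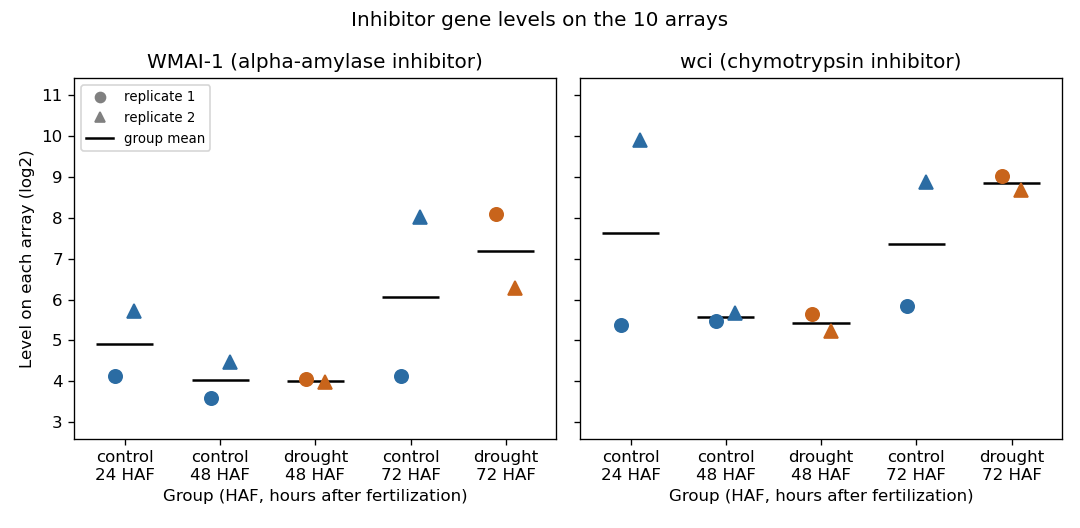
Log2 level of WMAI-1 (left) and wci (right) on each of the 10 arrays, by group. Circles are replicate 1, triangles replicate 2, blue is control, orange is drought, and the black bar is the mean of the 2 arrays. At 72 HAF control replicate 1 lies at 4.12 for WMAI-1 and 5.83 for wci, and the other 3 arrays lie at 6.29 to 8.08 and 8.69 to 9.02.

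WMAI-1 read 4.14 and 5.71 on control 24 HAF replicates 1 and 2, and 3.60 and 4.47 on control 48 HAF replicates 1 and 2. On drought 48 HAF replicates 1 and 2 it read 4.05 and 3.97. At 72 HAF it read 4.12 and 8.02 on control replicates 1 and 2, and 8.08 and 6.29 on drought replicates 1 and 2. Control 72 HAF replicate 1 thus lay within the range of the 48 HAF arrays, while its partner was as high as the higher drought array. The group means were 7.19 ± 1.27 (SD, n = 2) in drought 72 HAF, 6.07 ± 2.76 in control 72 HAF, 4.92 ± 1.11 in control 24 HAF, 4.03 ± 0.62 in control 48 HAF and 4.01 ± 0.054 in drought 48 HAF seeds (n = 2 each). Every group in this order overlapped its neighbour.

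The chymotrypsin inhibitor gene wci read 5.37 and 9.91 on control 24 HAF replicates 1 and 2, and 5.48 and 5.66 on control 48 HAF replicates 1 and 2. On drought 48 HAF replicates 1 and 2 it read 5.64 and 5.23. At 72 HAF it read 5.83 and 8.87 on control replicates 1 and 2, and 9.02 and 8.69 on drought replicates 1 and 2. The 6 arrays from 5.23 to 5.83 lay close together at the bottom of the range, and the highest of all was control 24 HAF replicate 2. The group means were 8.86 ± 0.24 (SD, n = 2) in drought 72 HAF, 7.64 ± 3.21 in control 24 HAF, 7.35 ± 2.15 in control 72 HAF, 5.57 ± 0.13 in control 48 HAF and 5.43 ± 0.30 in drought 48 HAF seeds (n = 2 each). In this order only control 72 HAF and control 48 HAF had no overlap with each other among neighbours, by the margin between 5.83 and 5.66.

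The place of each gene within its own array set the same arrays of 72 HAF apart. The arrays had been equalised before deposit, so this place follows the log2 level closely and is no separate support for it. WMAI-1 lay above 42.6 to 55.1% of the tested probe sets on the 4 arrays of 48 HAF, above 49.9% on control 72 HAF replicate 1 and above 76.6 to 88.8% on the other 3 arrays of 72 HAF. For wci these shares were 63.7 to 68.6%, 70.5% and 93.1 to 93.7%. On control 24 HAF replicate 2 they were 76.0% for WMAI-1 and 97.5% for wci, against 50.3% and 65.0% on replicate 1. Signal over background was not measured in the deposited values, and WMAI-1 lay near the array medians of 4.08 to 4.24 on 6 arrays, so its transcript may not have been detected there.

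The spread between replicates was uneven. In control 72 HAF seeds the 2 arrays differed by 3.90 for WMAI-1 (14.9-fold) and by 3.03 for wci (8.19-fold), while the median difference of all tested probe sets in that group was 0.27. Larger gaps in that group were found in 0.242% and 0.454% of the probe sets. In control 24 HAF seeds the gap was 4.54 for wci (23.3-fold), exceeded by 0.495% of the probe sets, and 1.57 for WMAI-1, exceeded by 23.8%, with a median of 0.86 over all probe sets. In drought 72 HAF seeds WMAI-1 differed by 1.79 between the arrays, and wci by 0.33 with 62.7% of the probe sets above it. At 48 HAF the gaps of WMAI-1 were 0.87 in control and 0.076 in drought seeds, and those of wci 0.19 and 0.42.

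**Figure D2:**
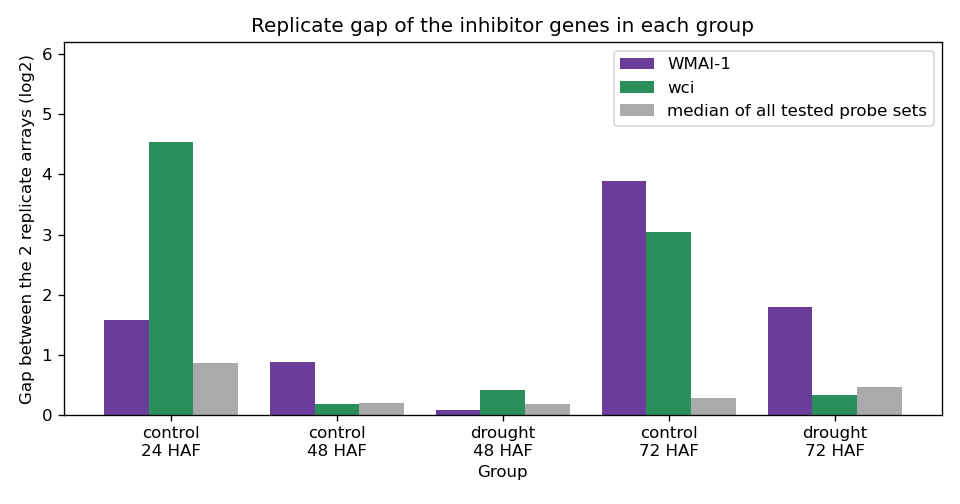
Bars give the absolute difference (log2) between the 2 arrays of each group for WMAI-1, for wci and, in grey, the median over the 61179 tested probe sets. The tallest bars are wci in control 24 HAF (4.54), WMAI-1 in control 72 HAF (3.90) and wci in control 72 HAF (3.03).

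The arrays behind these gaps also differed in the rest of their signal. Control 24 HAF replicate 2 correlated with the other 9 arrays at 0.811 to 0.898 over the tested probe sets, and the mean of its 3 BioB probe sets, which read a bacterial control transcript added at hybridisation, was 11.9 against 4.01 to 6.97 on the other arrays. Control 72 HAF replicate 1 correlated at 0.980 to 0.982 with the 4 arrays of 48 HAF, at 0.969 with its own replicate and at 0.967 and 0.959 with the drought 72 HAF arrays. Control 72 HAF replicate 2 correlated more closely with drought 72 HAF replicate 1 (0.996) than with its own replicate. Control 48 HAF replicate 2 correlated at 0.993 with drought 48 HAF replicate 1 and at 0.986 with its own replicate. The highest coefficient of any pair, 0.996, was between control 24 HAF replicate 1 and control 48 HAF replicate 1. Drought 72 HAF replicate 2 correlated at 0.951 with its own replicate and at 0.898 to 0.959 with the other arrays, and its BioB mean of 6.97 was the highest after that of control 24 HAF replicate 2. Of the 2 starch synthesis genes of the endosperm, waxy, an enzyme of amylose synthesis, read 10.3 to 10.8 on all 10 arrays. AGP-S, a subunit of the enzyme that makes ADP-glucose, read 10.02 and 8.38 on control 24 HAF replicates 1 and 2, 10.1 to 10.3 at 48 HAF, 9.58 and 11.3 on control 72 HAF replicates 1 and 2 and 11.2 and 9.60 on drought 72 HAF replicates 1 and 2. The photosystem genes PsbO and PsbP, which mark green tissue such as the pericarp, read 10.2 to 11.5. In whole seeds, fewer cells of a type and less RNA per cell cannot be told apart. The part of seed age or tissue makeup in the differences was not tested.

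The first question of the study was how drought changed the seed at a given age. At 48 HAF neither inhibitor gene differed between droughted and watered seeds beyond the array spread. The drought minus control difference was -0.02 for WMAI-1 (limma SE 1.16) and -0.13 for wci (SE 1.37), and the arrays overlapped for both genes. Without overlap, in either direction, were 31.3% of all tested probe sets. Single pairs of a drought and a control array differed by -0.50 to 0.45 for WMAI-1 and by -0.43 to 0.17 for wci. With limma, 0 of the 2 genes and 0 of the 61179 probe sets passed an adjusted p of 0.05 (0.0%), and 82 probe sets had an unadjusted p under 0.05. In this and every later comparison, the number with such a p was below the share of 0.05 expected with no differences.

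At 72 HAF the group means of both genes were higher under drought, and the arrays overlapped for both, while 21.3% of all tested probe sets had no overlap in either direction. WMAI-1 was 1.12 higher (2.17-fold, limma SE 1.16) and wci 1.51 higher (2.84-fold, SE 1.37). Of the 4 pairs of a drought and a control array, 3 were higher in drought for each gene, and the pairs ranged from -1.73 to 3.96 for WMAI-1 and from -0.18 to 3.19 for wci. Without control 72 HAF replicate 1 the difference was -0.83 for WMAI-1 and -0.01 for wci, and without control 72 HAF replicate 2 it was 3.06 and 3.02. Control replicate 2 lay between the drought arrays for both genes, so the higher drought means rested on control replicate 1. Over all tested probe sets control replicate 2 correlated at 0.996 with drought replicate 1 and at 0.969 with control replicate 1. With limma, 0 of the 2 genes and 0 of 61179 probe sets passed (0.0%), and 252 probe sets had an unadjusted p under 0.05.

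The drought effect at 72 HAF minus that at 48 HAF was 1.14 for WMAI-1 (limma SE 1.64) and 1.64 for wci (SE 1.94). Leaving out control 72 HAF replicate 1 brought it to -0.81 and 0.12, and leaving out replicate 2 to 3.09 and 3.16. With limma, 0 probe sets passed for this difference (0.0%), neither inhibitor gene among them, and 227 had an unadjusted p under 0.05.

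**Figure D3:**
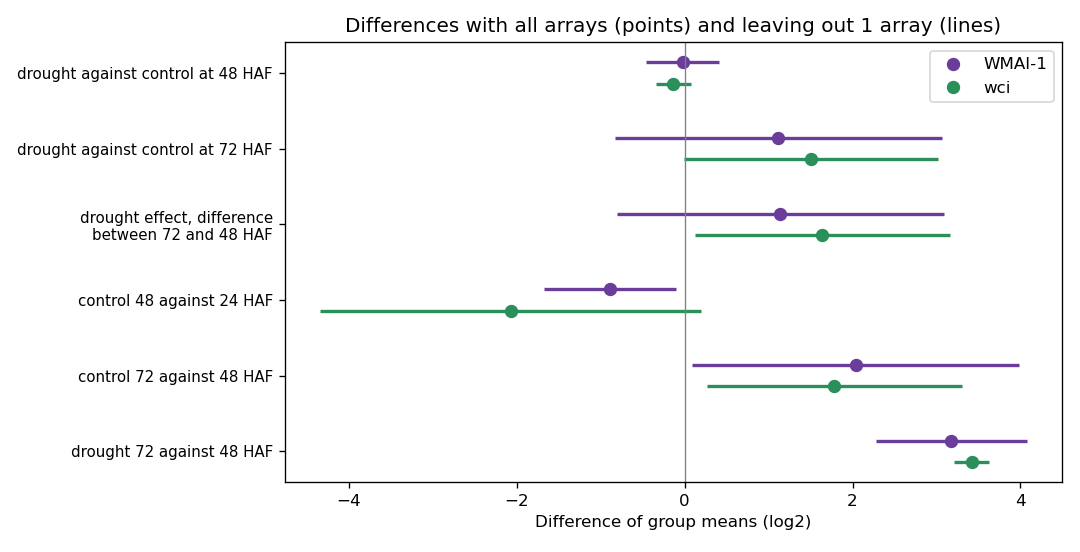
Difference of group means (log2) of WMAI-1 and wci in 6 comparisons. Points use all arrays, and lines span the values obtained by leaving out 1 array of the groups compared. For drought 72 against 48 HAF the lines run from 2.28 to 4.07 (WMAI-1) and from 3.21 to 3.63 (wci), and for drought against control at 72 HAF from -0.83 to 3.06 and from -0.01 to 3.02.

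The second question was how the seed developed with water. The means of both genes were lower at 48 than at 24 HAF, with a difference of -2.07 for wci (0.238-fold, limma SE 1.37) and -0.89 for WMAI-1 (0.540-fold, SE 1.16). The arrays of the 2 times overlapped for both genes, against 24.8% of all tested probe sets without overlap. Without control 24 HAF replicate 2, which carried the high BioB reading, the differences were 0.20 for wci and -0.10 for WMAI-1, and without replicate 1 they were -4.34 and -1.67. With limma, 0 of the 2 genes and 0 of 61179 probe sets passed (0.0%), and 907 had an unadjusted p under 0.05.

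From 48 to 72 HAF in watered seeds, the mean of WMAI-1 was higher by 2.04 (4.11-fold, limma SE 1.16) and that of wci by 1.78 (3.44-fold, SE 1.37). The arrays overlapped for WMAI-1. For wci all 4 pairs of arrays were higher at 72 HAF, by 0.17 to 3.39, and 15.7% of all tested probe sets were likewise higher without overlap. Without control 72 HAF replicate 2 the differences were 0.09 for WMAI-1 and 0.27 for wci, and without replicate 1 they were 3.99 and 3.30. With limma, 0 of the 2 genes and 0 of 61179 probe sets passed (0.0%), and 187 had an unadjusted p under 0.05.

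From 48 to 72 HAF in droughted seeds, both inhibitor genes were higher on each 72 HAF array than on each 48 HAF array. WMAI-1 was higher by 3.18 (9.05-fold, limma SE 1.16), with single pairs at 2.24 to 4.11, and wci by 3.42 (10.7-fold, SE 1.37), with pairs at 3.05 to 3.80. Among all tested probe sets 23.3% were higher at 72 HAF without overlap, and 2.89% were so by at least 2-fold. A larger positive difference was found in 0.309% of the probe sets for WMAI-1 and 0.265% for wci. Leaving out any 1 of the 4 arrays kept the difference between 2.28 and 4.07 for WMAI-1 and between 3.21 and 3.63 for wci. With limma, 0 of the 2 genes and 0 of 61179 probe sets passed (0.0%), and 2470 had an unadjusted p under 0.05. That number was also below the share of 0.05 expected with no differences. The comparisons of this section share arrays, so their values stand side by side and are not independent of each other.

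Among the other inhibitor genes on the annotated part of the array, 2 with the synonym ATI, the usual abbreviation of amylase/trypsin inhibitor in wheat, had levels with the same high and low arrays. LOC543286 (ATI) read 4.72 and 10.5 on the control 24 HAF arrays, 3.50 to 5.58 on the 4 arrays of 48 HAF, 5.19 on control 72 HAF replicate 1 and 10.6 to 11.3 on the other 3 arrays of 72 HAF. LOC543281 (ATI) read 4.02 and 10.4 at 24 HAF, 2.68 to 4.91 at 48 HAF, 4.47 on control 72 HAF replicate 1 and 10.8 to 11.5 on the other 3. Both ATI genes are placed on chromosome 4B by the same gene table, and the suffixes of their probe sets (_s_at and _a_at) mark probes shared by several transcripts. Their agreement can therefore not be read as one of independent genes, and the probe sequences were not compared.

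The other 5 inhibitor genes ranged over fewer log2 units than these. The serpins, which trap serine proteases, had low values, with Serpin-Z2A (LOC543376) at 2.86 to 4.16, highest on control 24 HAF replicate 2 as wci was, Serpin-Z2B (LOC543382) at 2.76 to 3.52 and Serpin-Z1C (LOC542985) at 2.19 to 3.02 on the 10 arrays, highest on drought 72 HAF replicate 2. The serpin WSZ1b (LOC100037548) read 3.70 to 4.08 on the 6 arrays of 24 and 48 HAF and 3.83 on control 72 HAF replicate 1. Its highest values, 4.13, 4.30 and 4.76, were on control 72 HAF replicate 2 and drought 72 HAF replicates 1 and 2, the arrays of 72 HAF on which WMAI-1 and wci were high. The xylanase inhibitor XIP-I (LOC542997), directed against cell-wall-degrading enzymes of fungi, was highest at 7.49 and 7.51 on control 24 HAF replicate 1 and control 48 HAF replicate 1 and read 5.25 to 6.15 on the other 8. Of these 7 genes, 5 had higher and 2 lower means in drought than in control seeds at 72 HAF (median 0.33, against 0.03 over all tested probe sets), and without control 72 HAF replicate 1 it was 3 higher and 4 lower (median -0.17). In drought 72 against 48 HAF 5 were higher and 2 lower (median 0.56, against 0.06 over all), and without drought 72 HAF replicate 2 it was 4 higher and 3 lower (median 0.28). In no comparison did any of the 7 pass limma's adjusted p of 0.05.

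The list of amylases and proteases matched 1 gene, BMY1 (LOC543318), a beta-amylase that releases maltose from starch. It held no alpha-amylase and no protease, so no target enzyme of the inhibitors was measured under this list. BMY1 read 11.1 to 12.2 on the 10 arrays. It was lowest on control 24 HAF replicate 2 (11.1) and drought 72 HAF replicate 2 (11.5). The lipid transfer protein LTP3 (LOC543095), a defence-related member of the prolamin superfamily, read 11.9 to 12.8, with 12.5 to 12.8 on the 4 arrays of 72 HAF.

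Most seed storage protein genes and the thionin genes were high on the same arrays as the inhibitors, and some were not. The mean over 8 storage protein genes was 3.99 to 4.26 on the 4 arrays of 48 HAF and 4.02 on control 72 HAF replicate 1, against 7.34, 7.51 and 6.59 on control 72 HAF replicate 2 and drought 72 HAF replicates 1 and 2. On control 24 HAF replicates 1 and 2 it was 4.07 and 6.17. The mean over 4 thionin and defence genes was 2.85 to 3.96 at 48 HAF, 3.83 on control 72 HAF replicate 1 and 8.69, 8.52 and 7.37 on the other 3 arrays of 72 HAF, in the same order. At 24 HAF it was 3.79 and 6.98. The brightest storage gene, the avenin-like ALP (LOC100125692), went the other way, with 7.91 on control 24 HAF replicate 2 and 8.59 on drought 72 HAF replicate 2 and 9.50 to 10.1 on the other 8 arrays. The gliadin LOC543385, named after its values were seen, read 1.98 on control 72 HAF replicate 2, below its 2.14 on control 48 HAF replicate 2. PR5 (LOC543292), a thaumatin-like defence protein, read 2.17 and 2.24 on control 72 HAF replicate 2 and drought 72 HAF replicate 1, below its 2.57 on control 72 HAF replicate 1. In drought 72 against 48 HAF, 7 of 8 storage genes (median 2.65) and 4 of 4 thionin and defence genes (median 5.22) were higher. The median over all tested probe sets was 0.06, and none of the 12 genes passed limma's adjusted p of 0.05. At 72 HAF, 7 of 8 storage and 4 of 4 thionin and defence genes had higher means in drought than in control seeds. Their medians were 1.12 and 1.91, against 0.03 over all tested probe sets. Without control 72 HAF replicate 1, 2 of 8 and 1 of 4 were higher. THI1.1, THI1.2 and THI1.3 carry synonyms starting with Pur, and several storage genes are gliadins, so the counts cannot be read as independent. Their probe sequences were not compared.

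Starch synthesis, pollen, histone and tubulin genes ranged over fewer log2 units than the inhibitors. The mean of AGP-S and waxy was 9.32 to 11.0 over the 10 arrays, and that of 6 tubulin genes 11.6 to 12.0. Profilin, abundant in pollen, read 12.4 to 12.6. The mean of 5 histone genes, which mark dividing tissue, was 11.3 on control 72 HAF replicate 1 and 10.4 to 11.0 on the other 9 arrays. It was thus highest on the array of 72 HAF where both inhibitors were low, though not for every histone gene. H2B-6 read 11.70 there and 11.82 on drought 72 HAF replicate 2, and H2B-8 read 11.78 there and 11.81 on control 24 HAF replicate 2. The tubulin mean was also highest on control 72 HAF replicate 1, with 11.98 on it and on drought 72 HAF replicate 2.

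**Figure D4:**
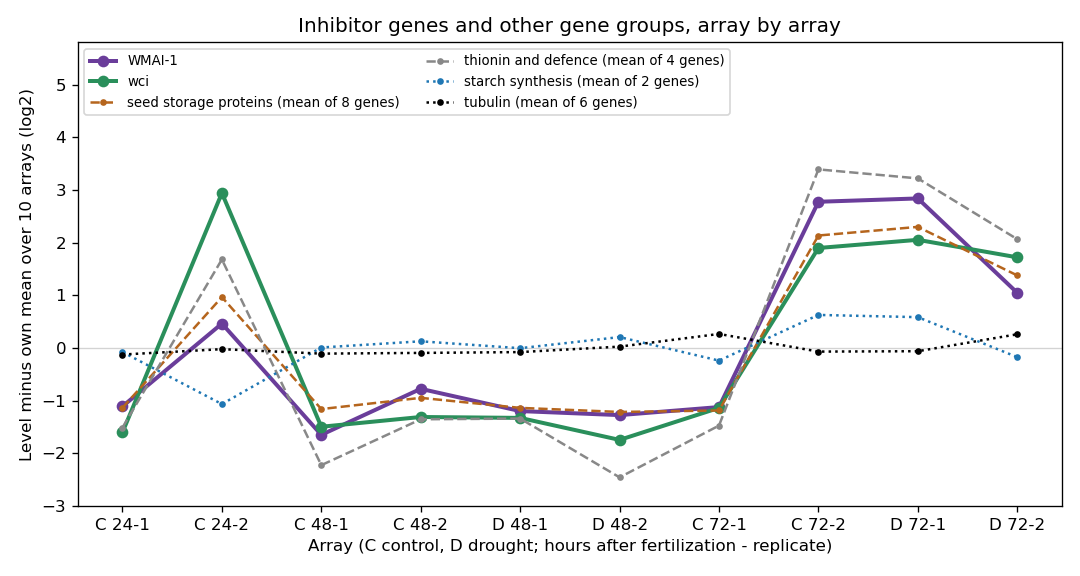
Level on each array minus the mean of the same gene or gene list over the 10 arrays (log2), for WMAI-1, wci and the mean of 4 gene lists. Lines only join the points of 1 gene or list, and the replicates of a group have no order. Both inhibitors, the storage proteins and the thionins are high on control 72 HAF replicate 2 and both drought 72 HAF arrays, and low on control 72 HAF replicate 1, and on control 24 HAF replicate 2 wci lies farthest above its own mean.

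The patterns of the 2 inhibitor genes differed from each other on the arrays that stood apart. From replicate 1 to replicate 2 the 24 HAF level was higher by 4.54 for wci and by 1.57 for WMAI-1, and the drought 72 HAF level was lower by 0.33 for wci and by 1.79 for WMAI-1. The correlation of WMAI-1 with wci over the arrays was 0.853 for all 10 and 0.961 for the 8 arrays of 48 and 72 HAF. As a description, these coefficients reflect a few high arrays against a larger number of low ones, as for most storage protein genes and the thionin genes. Over all other tested probe sets the median r on 10 arrays was 0.02 with WMAI-1 and 0.21 with wci. By Pearson's r with WMAI-1 over 10 arrays, wci was number 36 of 770 other genes with a symbol, and WMAI-1 was number 44 of 770 by likeness to wci.

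Over 10 arrays the genes most like WMAI-1 were the thionin gene THI1.3 (LOC543413, r = 0.985), LOC543265 (0.985), LOC543308 (0.981), the avenin-like gene avnla (LOC780582, 0.980) and LOC732704 (0.979). THI1.3 encodes a purothionin, a small peptide of the endosperm toxic to microbes, and read 9.85, 9.77 and 7.25 on control 72 HAF replicate 2 and drought 72 HAF replicates 1 and 2. On control 24 HAF replicate 2 it read 6.30. The avenin-like gene, a storage protein relative, read 8.43, 8.58 and 6.30 on those 3 arrays of 72 HAF and 4.82 on control 24 HAF replicate 2. Like WMAI-1, these genes were lower on drought 72 HAF replicate 2 than on its partner, by 2.52 for THI1.3 and 2.28 for the avenin-like gene. Over the 8 arrays of 48 and 72 HAF, the 5 most alike were the avenin-like gene (0.994), LOC543152 (0.991), LOC543308 (0.990), THI1.3 (0.988) and THI1.2 (0.988).

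The genes most like wci over 10 arrays were others, with a low-molecular-weight glutenin gene first (LOC543213, r = 0.989), then LOC542955 (0.986), LOC543286 (ATI, 0.967), LOC542858 (0.967) and LOC543281 (ATI, 0.966). The glutenin gene, whose product forms part of the gluten network, read 7.68 on control 24 HAF replicate 2 and 6.97, 7.33 and 7.32 on the 3 high arrays of 72 HAF. Its highest value was thus on the same array as that of wci. Over the 8 arrays without 24 HAF, the most alike were the gamma-gliadin LOC543214 (0.994), the gliadin LOC543211 (0.993), LOC100125699 (0.992), the gliadin LOC543210 (0.992) and LOC780684 (0.990). Coefficients of at least 0.9 over 10 arrays were reached by 348 tested probe sets with WMAI-1 (0.569%) and by 403 with wci (0.659%), and over the 8 arrays by 627 (1.02%) and 822 (1.34%).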

How the data were processed

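RNA from developing seeds was hybridised to 10 Affymetrix wheat arrays, 2 per group. The labels' description names both endosperm and whole seed, and whole seed was assumed. Per the submitters' processing notes the authors used affy and RMA, which corrects background, equalises the arrays and summarises probes, and deposited log2 values. No version of these tools is given in the sources used here. They were used as deposited, with no further scaling and no filter on level. The table held 0 other columns of per-sample values. After 111 control probe sets were left out, 61179 entered a limma fit (version 3.58.1, R 4.3.3) of 1 mean for each group over all 10 arrays, whose variances were moderated along intensity (residual degrees of freedom 5, prior 3.59), with Benjamini-Hochberg adjustment over all tested probe sets (threshold 0.05). The limma SE is that of this fit, with 1 variance per probe set shared by all 5 groups. It therefore does not give the spread of the 2 groups compared alone. For wci the SD was 3.21 in control 24 HAF, against 0.13 in control and 0.30 in drought 48 HAF. The p-values set a difference against this shared spread between arrays, whose number limits the precision. This fit was also run on simulated data with known changes, whose outcome is not reported here.

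The inhibitor genes and gene lists were chosen with earlier results of these data known. List patterns were matched to symbols and synonyms of the probe and RefSeq gene tables. Gliadin, glutenin, avenin-like, ATI, WSZ and XIP spellings were added once the annotation had been read. A gene was represented by its brightest probe set. The genes named are the 2 inhibitor genes, the 5 genes with a symbol most correlated with each over 10 and over 8 arrays, and the brightest 4 members of a list. All 7 other inhibitors are named, a choice made after their values were seen. Alternatives were no intensity trend, the replicate number as a block, leaving out each array, quantile and median rescaling, and a filter on level.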

Additional observations from a re-analysis of the deposited data

How the results depend on the processing

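Each comparison was repeated without the intensity trend, with the replicate number as a block, after quantile rescaling, after median centring and with dim probe sets left out. In these fits 0 probe sets passed in each of the 6 comparisons. Only the quantile rescaling and the median centring could change the group means. With them the differences of WMAI-1 and wci moved by less than the spread between replicates. Neither the trend nor the filter enters a group mean, and each group held 1 array of each replicate number. The differences were therefore fixed in those fits, such as 3.18 and 3.42 for drought 72 against 48 HAF. Replicate differences correlated between groups at -0.519 to 0.586, so equal replicate numbers did not mark the same pairs throughout. Between control and drought the coefficient was -0.489 at 48 HAF and -0.519 at 72 HAF. Whether arrays of these groups were linked in another way was not tested. The mean over probe sets gave no other value, as each gene had 1 probe set. In fits without 1 array, 0 to 25621 probe sets passed for control 48 against 24 HAF (25621 without control 24 HAF replicate 1 and 1 without control 48 HAF replicate 2). For drought against control at 48 HAF and for control 72 against 48 HAF 0 to 2 passed, with 2 in each without control 48 HAF replicate 2, and 0 passed in the other 3 comparisons. Without control 24 HAF replicate 1, the only 24 HAF array was replicate 2, with a BioB mean of 11.9. It correlated at no more than 0.898 with any other array. The spread in that fit came from the other groups. The 25621 probe sets therefore set 1 outlying array against control 48 HAF, and no developmental difference can be read from them. Without control 48 HAF replicate 2, that group likewise held 1 array. The difference of the drought effect between times ranged from -0.81 to 3.09 for WMAI-1 and from 0.12 to 3.16 for wci. With 2 arrays per group, the 95% interval of a difference had a median half-width of 0.92 (log2) in a comparison of 2 groups over the tested probe sets. For WMAI-1 and wci the limma SE alone was 1.16 and 1.37 in such a comparison, so their intervals were wider than that.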
